A study of Mus musculus with 9 samples.

Results

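The regions described here are the differentially methylated regions (DMRs) of postnatal day 6 mouse hypothalamus that carried substantial read coverage in both groups of the study. They were selected on the group means themselves, as the autosomal DMRs of the authors' deposited table in which the control mean and the MMS mean were both 4.5 or more on the log2 scale of normalised reads, which is 22.6 reads. By this rule 894 of 12845 autosomal DMRs were taken, from 12949 in the whole table. Among the remaining autosomal DMRs, 3508 reached the limit only in control, 2244 only in MMS and 6199 in neither group. The table was read as a list that the authors had already selected for a difference between groups.

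All animals were male C57/Bl6 mice, and littermates were divided between the groups. In modified maternal separation (MMS), pups spent 1.5 h of each day between postnatal days 4 and 6 on a heating pad away from their mother, with handling that kept turning them onto their backs. Controls did not undergo MMS. Hypothalamic DNA of 10 animals per group was allocated at random to 3 pools, which gave 3 control and 3 MMS libraries, with 2 pooled inputs and 1 IgG library beside them. The sample labels name the methylcytosine antibody (BI-MECY) for the inputs and the IgG library too. A pool mixes several animals, so the spread between animals was not measured. The deposited values are 1 mean per group, named untreated and treated and read here as control and MMS. They have no value per library, so no SD is given and the groups were not tested here, and the authors' own test columns were not used. The study's methods give total reads per sample only as a range, and the deposited values do not tie a depth to each library. Every difference below is therefore a difference of the authors' means.

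DNA methylation in mammals is placed mainly on the cytosine of CpG sites, where it is copied to the new strand at each cell division. Methylation of a promoter rich in CpG sites generally goes with a silent gene, whereas the bodies of transcribed genes are commonly methylated. Methylated DNA immunoprecipitation (meDIP) uses an antibody that binds methylated cytosine to pull down DNA fragments, so read counts depend on how many CpG sites of a region are methylated and in what share of the cells. The hypothalamus holds many kinds of neuron and glia, and in bulk tissue a change in the share of a cell type and a change of methylation within cells cannot be told apart.

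The sequences below were taken from the RefSeq GRCm38 genome, plus strand, and chosen by the size of the difference. They lie at the centres of the 2 DMRs with the largest difference towards MMS and the 3 with the largest towards control. Each run holds 200 bases, written 5′ to 3′, and capitals mark CpG sites. The first 2 were higher in MMS, and the last 3 were higher in control.
Pde10a intron, chr17:8808353-8808552: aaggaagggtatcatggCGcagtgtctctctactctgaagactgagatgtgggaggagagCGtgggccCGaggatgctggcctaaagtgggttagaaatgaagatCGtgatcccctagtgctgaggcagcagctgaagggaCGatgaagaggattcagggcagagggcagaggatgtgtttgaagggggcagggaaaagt
Slc39a11 intron, chr11:113421623-113421822: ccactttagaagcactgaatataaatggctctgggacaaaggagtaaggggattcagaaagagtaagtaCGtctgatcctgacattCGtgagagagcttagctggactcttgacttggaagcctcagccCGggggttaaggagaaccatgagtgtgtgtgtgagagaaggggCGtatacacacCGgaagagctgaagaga
Aida intron, chr1:183299695-183299894: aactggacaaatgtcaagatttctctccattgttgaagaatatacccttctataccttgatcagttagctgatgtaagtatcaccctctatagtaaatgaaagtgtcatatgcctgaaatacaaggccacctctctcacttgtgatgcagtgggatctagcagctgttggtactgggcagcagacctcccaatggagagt
Trip11 intron, chr12:101856647-101856846: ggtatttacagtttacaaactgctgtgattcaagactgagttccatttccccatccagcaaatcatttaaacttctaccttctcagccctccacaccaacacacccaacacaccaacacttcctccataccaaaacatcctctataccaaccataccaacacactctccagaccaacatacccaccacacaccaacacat
intergenic, nearest gene Csnka2ip, chr16:64619970-64620169: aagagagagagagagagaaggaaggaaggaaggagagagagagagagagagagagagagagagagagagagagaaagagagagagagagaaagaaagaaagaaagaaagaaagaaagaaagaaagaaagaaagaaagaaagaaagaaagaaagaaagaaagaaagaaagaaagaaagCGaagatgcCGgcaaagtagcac
The central stretches of the 2 DMRs higher in MMS held 5 CpG sites each. Those of the Aida and Trip11 DMRs held 0, and that of the intergenic DMR on chromosome 16 held 2, after a long run of purine repeats. The Aida stretch was moved by 88 bases from the centre because an assembly gap covers 13.5% of that DMR. The 2 whole DMRs higher in MMS had 20 and 54 CpG sites, the next largest towards MMS, at Lamtor3, had 6, and the 3 higher in control had 6, 1 and 47.

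The main pattern among the 894 DMRs was their direction. In 770 of them (86.1%) the control mean was higher and in 124 (13.9%) the MMS mean was higher, whereas over all autosomal DMRs 37.6% were higher in control and 62.4% were higher in MMS. Among the 770, the median control mean was 6.03 and the median MMS mean 4.89, or 65.3 against 29.7 normalised reads. Among the 124, the median control mean was 4.90 and the median MMS mean 6.05, or 29.8 against 66.3 reads. Summed over all 894 DMRs, control had 1.68 times the normalised reads of MMS, whereas the ratio was 0.958 over all autosomal DMRs and 0.822 over the others. The rule used both group means, so these directions describe the regions it took and are not independent of it.

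**Figure D1:**
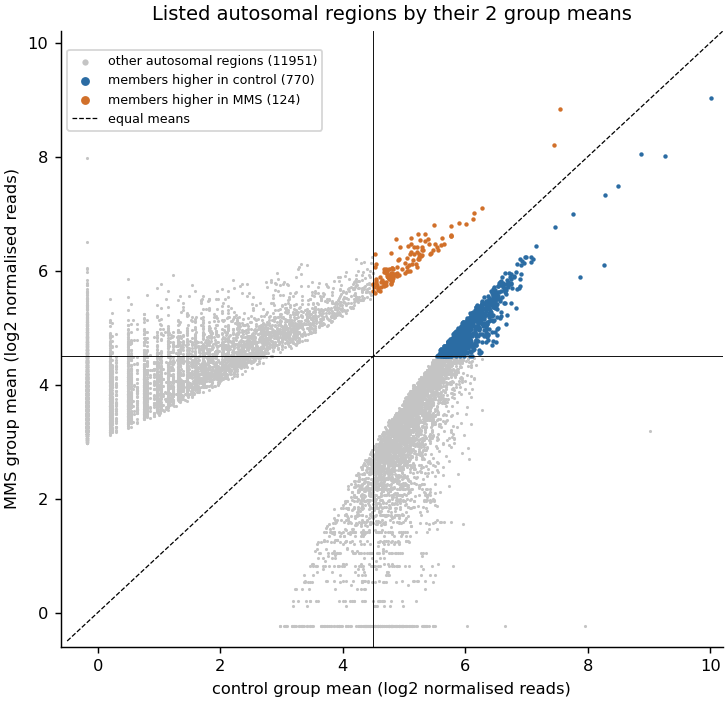
Each point is 1 autosomal DMR, with its control mean on the x axis and its MMS mean on the y axis, both in log2 normalised reads, and the thin lines mark the limit of 4.5. Of the coloured DMRs in the upper right corner, 770 lie below the dashed line of equal means and 124 above it, and the band along that line is empty because each listed DMR differs by 0.68 or more.

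The sizes of the differences are likewise bound to the rule, since DMRs with a group near its lowest value were not taken. They ran from 0.68 to 2.16 on the log2 scale, with a median of 1.07, which corresponds to 1.60 to 4.47 times and a median of 2.1 times between groups. The size was about the same in both directions, with a median of 1.10 for DMRs higher in MMS (0.76 to 1.77) and of 1.07 for DMRs higher in control (0.68 to 2.16). A difference of 1 or more was present in 627 of the 894 (70.1%) against 97.9% of all autosomal DMRs. It reached 1.5 in 30 DMRs and 2 in 1. The other autosomal DMRs had a median size of 2.92.

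The share of DMRs higher in MMS was smaller in each successive class of the lower group mean, up to a mean of 5. It was 95.4% of 4045 autosomal DMRs with a lower mean of -1 to 0, 74.5% of 1807 at 1 to 2, 45.7% of 2004 at 2 to 3 and 24.3% of 1992 at 3 to 4. It was 13.7% of 1292 at 4 to 5, 14.8% of 344 at 5 to 6 and 22.2% of 18 at 6 to 7. The limit of 4.5 thus lies in a range where most listed DMRs were higher in control on either side of it. The smallest listed size also shrank along these classes, from 3.14 in the lowest to 0.68. Within the 894, the share higher in MMS was 12.8% of 525 DMRs with a lower mean of 4.5 to 5, 15.2% of 263 at 5 to 5.5, 13.6% of 81 at 5.5 to 6 and 24.0% of 25 at 6 or more. The median size in these 4 classes was 1.13, 1.00, 0.90 and 0.81.

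**Figure D2:**
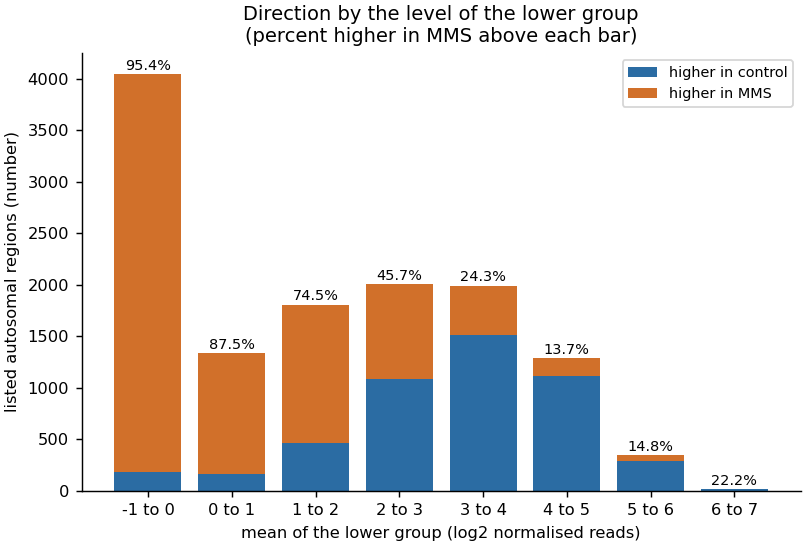
Bars count the autosomal DMRs in each class of the lower group mean (x axis, log2 normalised reads), divided into those higher in control and those higher in MMS. The percentage above each bar is the share higher in MMS, which goes from 95.4% in the lowest class to 13.7% at 4 to 5.

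The limit cut through a continuous range of values. There were 122 DMRs with a lower mean of 4.5 to 4.59, 14 of them higher in MMS, and 123 with a lower mean of 4.4 to 4.49, 16 of them higher in MMS. Just inside were an intergenic DMR at chr12:78062878-78064087 (control 6.11, MMS 4.5), one in an intron of Invs at chr4:48367359-48368190 (4.5 and 5.77) and one in an intron of the noncoding Gm49454 at chr10:67381361-67382000 (5.74 and 4.5). Just outside were DMRs in introns of Dpy19l3 (control 4.49, MMS 5.95), Elf5 (4.49 and 5.95) and Sh3gl3 (5.90 and 4.49).

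The largest differences with a higher mean in MMS lay mostly in introns. Pde10a encodes a phosphodiesterase that breaks down cAMP and cGMP, and its intronic DMR at chr17:8807485-8809421 had a control mean of 4.52 and an MMS mean of 6.29, a difference of 1.77 (3.41 times). Slc39a11, a zinc transporter of the ZIP family, held an intronic DMR at chr11:113420833-113422613 with means of 4.87 in control and 6.56 in MMS, a difference of 1.69. The DMR at chr3:137924088-137924405 lay at the annotated start of a transcript of Lamtor3, a subunit of the Ragulator complex on lysosomes, 5740 bp from the outermost start of the gene, with means of 4.54 and 6.11, a difference of 1.57. In these 3 regions the control group had 22.9, 29.2 and 23.3 normalised reads, near the limit of 22.6 set by the rule.

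The other 5 of the 8 DMRs with the largest difference towards MMS had differences of 1.42 to 1.54. An intron of the noncoding gene Gm33056 (chr10:19294236-19294712) had means of 4.53 and 6.07. Ciz1, a nuclear matrix protein with a part in DNA replication, had a DMR at an annotated start (chr2:32366507-32368038) with means of 4.78 in control and 6.31 in MMS. The means were 4.93 and 6.41 in an intron of Jph2 (chr2:163380258-163382786), a junctophilin that holds the endoplasmic reticulum close to the cell membrane. The last DMR was wide, at 2529 bp. Ror2, a Wnt receptor of the tyrosine kinase class, had intronic means of 5.11 and 6.57 (chr13:53157083-53157604). Camta1, a calmodulin-binding transcription activator, had intronic means of 5.23 and 6.65 (chr4:151701600-151703272).

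The largest differences with a higher mean in control reached further. An intronic DMR of Aida, an axin-interacting protein, at chr1:183299337-183300076 had means of 8.26 in control and 6.10 in MMS, a difference of -2.16 and the largest of all 894. It contains an assembly gap, and its part in this value was not tested. Trip11 encodes a golgin of the cis Golgi, and its intronic DMR at chr12:101856618-101856876 had means of 7.87 and 5.88 (difference -1.99) with 1 CpG site in 259 bp. Both kept an MMS mean above the control mean of each of the 8 DMRs described for the opposite direction.

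The next 6 were close to each other in size, from -1.75 to -1.67, and 4 of them were intergenic. The intergenic DMR at chr16:64618814-64621325, 17661 bp from the start of Csnka2ip, had means of 6.50 and 4.75. That at chr16:33312348-33313143, 61303 bp from the start of the sorting nexin gene Snx4, had means of 6.43 and 4.69, with 3 CpG sites and 69.6% of its bases in annotated repeats. An intron of Dera, an aldolase of deoxyribose phosphate, at chr6:137785599-137787434 had means of 6.45 and 4.76. Among these regions the number of CpG sites ran from 3 to 47. The intergenic DMRs at chr8:114002656-114002848 and chr8:92202015-92202302, whose nearest genes were Nudt7 (a peroxisomal hydrolase of coenzyme A) and the homeobox gene Irx5, had means of 6.24 and 4.56 and of 6.25 and 4.58. Fam19a5, which encodes a secreted chemokine-like protein of the brain, had intronic means of 6.23 and 4.56 (chr15:87703669-87704085).

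**Figure D3:**
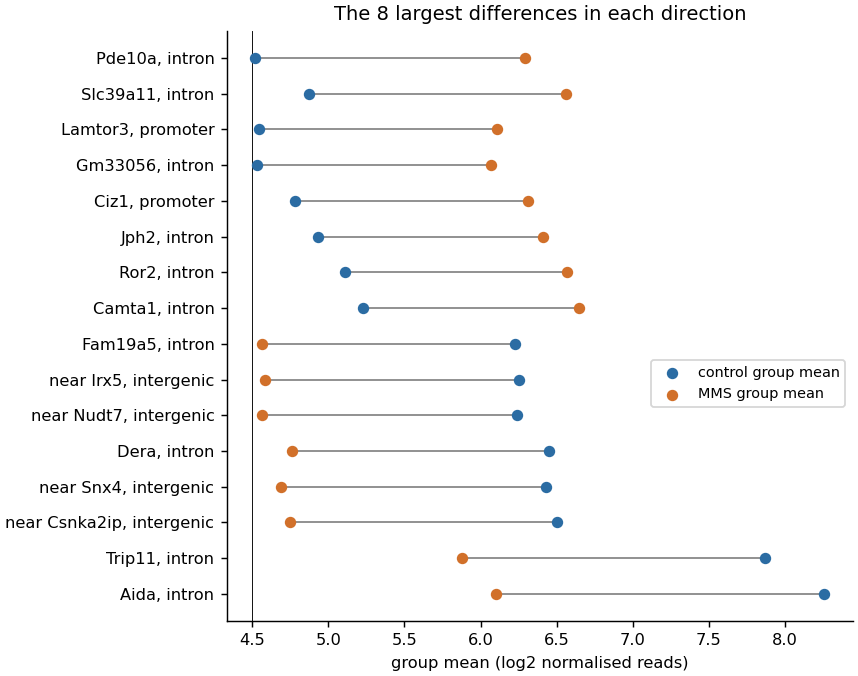
For each of the 8 DMRs with the largest difference in either direction, the points show the control and MMS group means (x axis, log2 normalised reads), and the vertical line marks the limit of 4.5. The Aida and Trip11 DMRs stand apart with control means of 8.26 and 7.87, and the other 14 have their lower mean between 4.52 and 5.23.

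The highest levels came from a short stretch of chromosome 11. Sfi1, which encodes a centrin-binding protein of the centriole, was touched by 4 of the 894 DMRs, all higher in control and all of the DMRs that the table lists for this gene. The DMR at chr11:3192187-3193782 had the highest means of all, 10.01 in control and 9.02 in MMS. The others had means of 9.26 and 8.01 (chr11:3184711-3185100), 8.87 and 8.04 (chr11:3136697-3137707) and 8.49 and 7.48 (chr11:3142897-3143616). The last 2 held stretches of 100 bases with an exact second copy in the genome over 43.2% and 52.0% of their length, and all 4 lay within 92187 bp of an assembly gap. The part of copied sequence or of the gap in these levels was not tested. After 3 of these, the next highest mean belonged to the widest DMR of the set, 7562 bp in an intron of Tmem267 (chr13:119595514-119603075), with means of 7.55 in control and 8.84 in MMS. It lay 9 bp from an assembly gap and 73.9% of it was annotated as repeats.

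Since a mean counts reads over the whole DMR, levels were also set per kilobase of width. Per kilobase, the mean over both groups was highest in the Sfi1 DMR at chr11:3184711-3185100 (10.1 on the log2 scale), followed by the Trip11 DMR (9.14), the Sfi1 DMR at chr11:3192187-3193782 (8.92) and an intergenic DMR of 200 bp at chr2:90590761-90590960 near the receptor phosphatase gene Ptprj (8.78). The last had means of 6.89 in control and 5.85 in MMS. The wide Tmem267 DMR had 5.42 per kilobase, below the median of 5.54 over the 894. The median over the other autosomal DMRs was 4.67 per kilobase.

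In width and CpG content the 894 DMRs stood above the rest of the list. Their median width was 1047 bp (quartiles 696 and 1550), against 518 bp for the other autosomal DMRs and 440 bp for the 4435 with a group at its lowest value. Of the 894, 475 (53.1%) were over 1000 bp wide, against 13.6% of the others. They held a median of 16 CpG sites against 6, and 1.59 CpG sites per 100 bp against 1.30. DMRs with 3 or fewer CpG sites were 64 of the 894 (7.16%) and 26.5% of the others. Because reads are counted over the whole DMR, width and the limit on the means are not independent. Across the 894 DMRs the mean over both groups had a Pearson correlation of 0.23 with log2 width (Spearman 0.28) and of 0.29 with the number of CpG sites (Spearman 0.29). Width and CpG number were themselves correlated at 0.73 (Spearman 0.82). Per 100 bp, CpG number had only 0.10 (Spearman 0.14) with the mean. All points share the same libraries.

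The higher density of CpG sites was also present within classes of width. Because meDIP reads depend on methylated CpG sites, CpG density and the limit on the means are not independent either. The comparison by width therefore does not separate density from the rule. A CpG-rich window, meaning 200 bp with at least 50% G or C and an observed to expected CpG ratio of at least 0.6, lay within or up to 500 bp from 333 of the 894 DMRs (37.2%) and 18.6% of the others. From the narrowest to the widest of 5 width classes, this share was 24.2% against 11.9%, 22.9% against 17.1%, 33.8% against 20.8%, 39.1% against 31.1% and 61.7% against 38.8%. Median CpG density in the same classes was 1.65 against 1.33, 1.66 against 1.31, 1.57 against 1.26, 1.55 against 1.35 and 1.65 against 1.39 per 100 bp. Within the 894, the size of the difference had a correlation of -0.04 with CpG density (Spearman -0.06), and the share higher in MMS was 17.4% of 138 DMRs under 1 CpG site per 100 bp, 13.3% of 512 at 1 to 2, 13.7% of 197 at 2 to 3 and 10.6% of 47 at 3 or more.

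DMRs of the 2 directions differed more in width than in CpG density. The 124 higher in MMS had a median width of 1316 bp and 18 CpG sites, with 1.57 per 100 bp, and 13.4% of their bases were in annotated repeats. The 770 higher in control had a median of 1018 bp and 16 CpG sites, with 1.59 per 100 bp, and 18.3% in repeats. DMRs almost without CpG sites occurred in this set too. In 3 DMRs there were 0 CpG sites, and all of them were higher in control: one in an intron of Ephb1 (6.10 in control, 4.67 in MMS), one in an intron of the noncoding Gm35572 (5.67 and 4.59) and one near Panx1 (6.15 and 5.16). These 3 were picked out after their values were seen. Only 43 of the 894 DMRs (4.81%) had any stretch of 100 bases with a second exact copy, against 5.81% of the others.

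**Figure D4:**
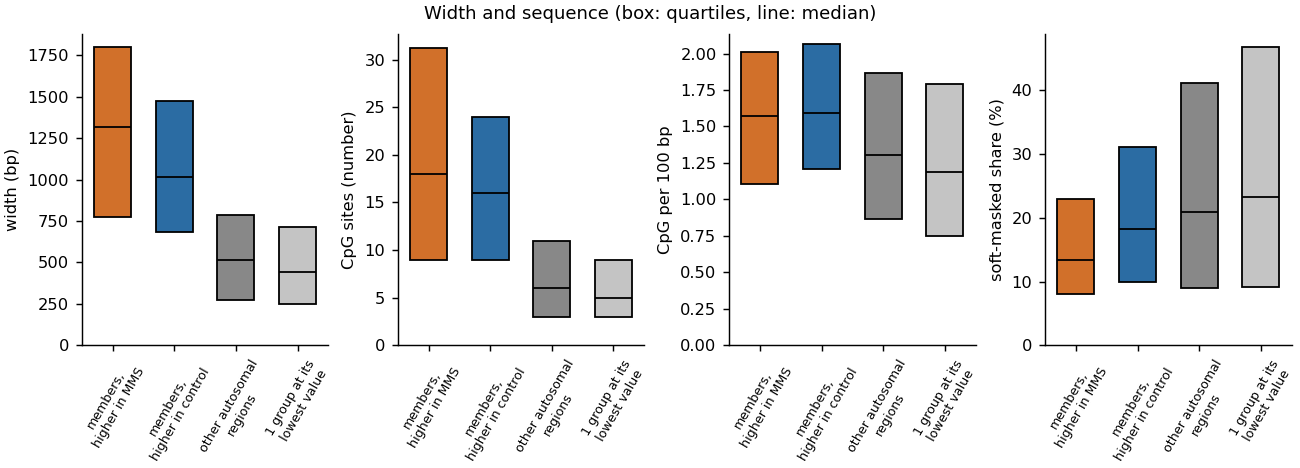
Boxes span the quartiles and the line is the median of width (bp), number of CpG sites, CpG sites per 100 bp and share of bases in annotated repeats (soft-masked, %), for the 124 DMRs higher in MMS, the 770 higher in control, the 11951 other autosomal DMRs and the 4435 with a group at its lowest value. Median widths were 1316, 1018, 518 and 440 bp in this order, while the medians of CpG density lay closer together.

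Most of the 894 DMRs lay in introns or between genes. By the position of the centre in the annotation, 438 (49.0%) were in introns, 305 (34.1%) intergenic, 53 (5.93%) at a transcription end, 49 (5.48%) in a promoter, 35 in exons, 14 in 3′ UTRs and 0 in 5′ UTRs. Among the other autosomal DMRs, introns held 45.5%, intergenic DNA 41.6%, transcription ends 4.45% and promoters 4.00%. The share higher in MMS was 26.5% in promoters (13 of 49), 16.2% in introns (71 of 438), 14.3% in exons (5 of 35), 10.5% in intergenic DNA (32 of 305), 5.66% at transcription ends (3 of 53) and 0 of 14 in 3′ UTRs. The median size of the difference was 1.03 to 1.09 in each of these features. The centre was within 5 kb of the start of a protein-coding gene in 82 DMRs (9.17%), at 5 to 50 kb in 439 (49.1%) and over 50 kb away in 373 (41.7%). Among the others these shares were 9.13%, 43.9% and 46.9%. The median distance was 37.4 kb against 43.6 kb for the others.

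At promoters, DMRs in both directions were found. Lamtor3 and Ciz1, described above, had the largest differences towards MMS. Vps52, a subunit of tethering complexes that return vesicles to the Golgi and endosomes, had the largest towards control, with means of 6.17 in control and 4.69 in MMS over 2317 bp and 49 CpG sites (chr17:33957227-33959543). Adamts10, a secreted metalloprotease of the extracellular matrix, had means of 5.98 and 4.55 at a promoter DMR of 771 bp. The genes in this group thus belong to varied processes. Hdac7, a class IIa histone deacetylase, had means of 6.18 and 4.79. Cit, the citron kinase of dividing cells, had means of 6.06 and 4.67. Inpp4a, a phosphatase of phosphoinositides, had means of 6.18 and 4.85. Ccdc40, which is needed to assemble the axoneme of motile cilia, differed from these in direction, with 5.49 in control and 6.80 in MMS. None of these DMRs lay at the outermost start of its gene, so the starts belong to alternative transcripts. The centres of the Adamts10, Hdac7 and Cit DMRs lay 13309, 29066 and 40418 bp from the start of the gene. For Ciz1, Vps52, Inpp4a and Ccdc40 the nearest gene start was that of another gene, 13934, 2384, 61445 and 8736 bp away. Their own gene start was thus farther.

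Protein-coding genes were touched by 509 of the 894 DMRs (56.9%), 80 of them higher in MMS, against 48.9% of the other DMRs. These DMRs fell in 491 genes of 20780 (2.36%). The genes were long, with a median of 79.8 kb against 17.6 kb for all genes and 67.8 kb for genes with any listed DMR. Only 28 genes had 2 or more such DMRs, in 18 genes all in the same direction and in 10 in both.

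Genes with several of these DMRs gave both uniform and mixed directions. Pde11a, another phosphodiesterase of cAMP and cGMP, held 3 intronic DMRs with means of 6.33 and 5.38, 5.90 and 4.79, and 6.24 and 5.22 in control and MMS. Ptgfrn, a membrane protein that associates with tetraspanins, also held 3, with means of 6.01 and 4.66, 5.25 and 6.30, and 5.82 and 4.62. The Pde11a regions were thus all higher in control by 0.95 to 1.11, whereas in Ptgfrn the middle one was higher in MMS by 1.05. Abcc4, a transporter that exports cyclic nucleotides, had one DMR higher in MMS (4.68 and 6.03) and one higher in control (6.41 and 5.51). The readthrough locus Gm20388 of 4435 kb on distal chromosome 8 held 5 of its 56 listed DMRs, against 8.01% over all DMRs touching a protein-coding gene. Of these, 4 were higher in control and 1, at chr8:122836149-122841090, had means of 6.28 and 7.09. Some of those higher in control also touched the genes Gse1, Piezo1 and Gas8. A few more genes were picked out after their values were seen. The chromatin remodeller gene Chd7 was the only one of the 28 with both DMRs higher in MMS (4.6 and 5.64, 4.63 and 5.72). Fto, an RNA demethylase gene linked to body weight, had an intronic DMR higher in MMS (5.30 and 6.36) and one in its 3′ UTR higher in control (6.56 and 5.17).

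The gene lists below are read against 2.36% of all protein-coding genes with one of these DMRs, 8.01% of the listed DMRs touching any such gene that belong to the 894, and 86.1% of the 894 higher in control. The share of listed DMRs that belonged to the 894 was 9.52% for glutamate receptors (4 of 42) and 11.1% for postsynaptic scaffolds (3 of 27). It was 18% for calcium and sodium channels and 12.9% for cAMP, protein kinase C and CaM kinase genes. Shares above 8.01% were not confined to such lists, with 12.5% for the homeobox, Sox, Fox, T-box, Gata and Pax list and 11.1% for imprinted genes. Shares below it included 7.69% for GABA and glycine receptors, 4% for potassium channels, 5.56% for nuclear receptors and 1.41% for Zfp genes. Genes in several lists were long, with a median of 319 kb for glutamate receptors and 107 kb for postsynaptic scaffolds, and the part of length was not tested. Among 25 glutamate receptor genes, 3 (12%) held 4 of these DMRs, of which 1 was higher in MMS. Grin2c, an NMDA receptor subunit, had intronic means of 5.44 in control and 6.31 in MMS. Grik3, a kainate receptor subunit, had exonic means of 6.46 and 5.46. Grin2d, the NMDA receptor subunit of the embryonic and early postnatal brain, had 2 DMRs 7061 bp apart with nearly equal values, 6.6 and 5.77 in an intron and 6.74 and 5.94 at an annotated start. Among 15 postsynaptic scaffold genes, Shank2 (5.93 and 4.83), Dlgap2 (5.64 and 4.54) and Dlgap1 (6.71 and 5.78) held 1 each (20% of the list), all higher in control. Of 21 GABA and glycine receptor genes only Gabra4 held one, higher in MMS (4.70 and 5.80).

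Ion channel genes held DMRs of both directions. Of 39 voltage-gated calcium and sodium channel genes, 7 (17.9%) held 9 DMRs, of which 2 were higher in MMS, and the median size was 1.06. Cacna1c, the pore of an L-type calcium channel, had the largest difference towards control (6.03 and 4.76), and Scn8a, a sodium channel of the axon initial segment, the largest towards MMS (4.86 and 5.94). Of 91 potassium channel genes, only Kcnd3 (5.84 and 4.82) and Kcnj6 (5.13 and 6.11), a channel opened by G proteins, held one. Over all DMRs of the table that touch these 2 lists, 60% and 74.0% were higher in MMS.

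Of 78 genes of the cAMP, protein kinase C and CaM kinase pathways, 10 (12.8%) held 13 DMRs, of which 4 were higher in MMS. The genes of this list had a median length of 92.3 kb. Pde10a had the largest difference towards MMS, as given above. Pde8a, a phosphodiesterase specific for cAMP, had the largest towards control (5.97 and 4.8, in an intron). The catalytic subunit gene of protein kinase A, Prkaca, had exonic means of 6.31 and 5.21. Camkk2, an upstream kinase of CaM kinases and AMPK, had means of 5.30 and 6.42 at an annotated start. Neither direction was thus shared by the whole pathway.

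Genes of the hypothalamic stress and feeding systems were represented by 1 or 2 genes of each list. Of 73 genes for neuropeptides and their receptors only Agrp (1.37%) held a DMR, with means of 6.58 in control and 5.21 in MMS, a difference of -1.37. Agrp encodes the appetite-stimulating peptide of arcuate neurons, and the DMR at chr8:105619095-105619970, with 22 CpG sites in 876 bp, lay in an intron shared with an overlapping transcript of Ripor1. Of 45 nuclear receptor genes 2 (4.44%) held one. Esr1, an oestrogen receptor, had intronic means of 5.72 and 4.77, and Nr3c2, the mineralocorticoid receptor that binds corticosterone, had means of 6.17 and 5.28 at an annotated start. Of 40 glucocorticoid-response, immediate early and clock genes, only Zbtb16 (2.5%), a zinc finger transcription factor induced by glucocorticoids, held any. Its 2 DMRs were both higher in control, with 5.90 and 4.55 in the 3′ UTR and 5.97 and 4.88 in an intron.

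Chromatin, developmental and imprinted genes were also listed. Of 73 genes of DNA methylation and histone modification, 6 held one DMR each, 5 higher in control, led by Hdac7. Kmt2b, a histone H3 lysine methyltransferase, was the one higher in MMS (5.02 and 5.96, at an annotated start). Of 215 homeobox, Sox, Fox, T-box, Gata and Pax genes, 6 held 7 DMRs. Zfhx3, a factor expressed in the suprachiasmatic nucleus, had the largest difference towards control (6.05 and 4.68), and Prox1 the only one towards MMS (4.78 and 5.95). Of 107 FGF, Wnt, BMP, Hedgehog and Notch genes, only Fgfr2 (5.17 and 6.41) and Notch3 (5.76 and 6.78) held one, both higher in MMS. The DMR touching Fgfr2 had its centre in an exon of another annotated gene, Gm4275. Of 47 imprinted genes, Igf2r, expressed from the maternal copy in most tissues, was higher in MMS (5.39 and 6.56), and Blcap (6.48 and 5.43) and Rasgrf1 (5.79 and 4.76) were higher in control.

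Adhesion and matrix genes held at most 5 of these DMRs per list. Of 68 axon guidance genes, 4 held 5 DMRs, all higher in control, led by the CpG-free Ephb1 DMR. Of 44 synaptic adhesion genes, 4 held 5, and Nlgn2, a neuroligin of inhibitory synapses, was the one higher in MMS (5.14 and 6.18) while Tenm4, a teneurin, led those higher in control (5.73 and 4.52). Of 77 collagen, laminin and ADAMTS genes, 5 held one each, all higher in control, led by Adamts10. The 98 cadherin and protocadherin genes held 0 of the 894 DMRs, although 46 listed DMRs touched 36 of them. Of 383 Zfp zinc finger genes, only Zfp652 held one (6.45 and 5.42). Across the lists, the share of listed DMRs that belonged to the 894 ran from 0 for cadherins to 18.2% for the glucocorticoid-response list, which is 2 of only 11 listed DMRs, both in Zbtb16. Some of the genes named in these lists were chosen after their values were seen.

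**Figure D5:**
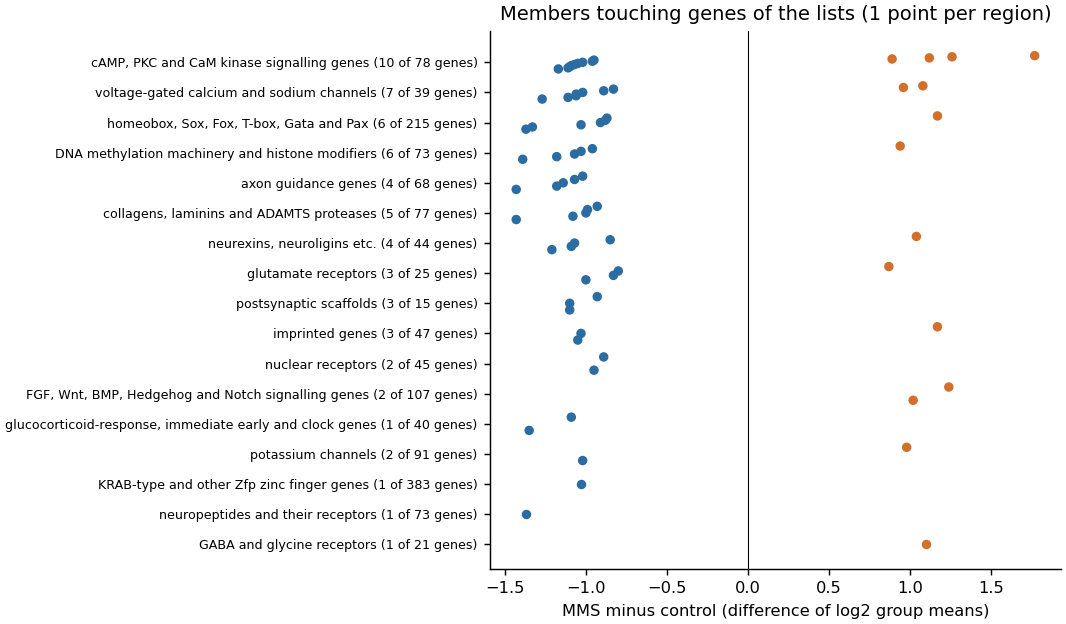
Each point is 1 of the 894 DMRs that touches a gene of the list on the y axis, placed by its difference of log2 group means, MMS minus control, on the x axis. Points left of 0 are higher in control and points right of 0 higher in MMS, and no point lies between -0.80 and 0.87.

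Along the genome, the 894 DMRs were spread over all 19 autosomes. Their number per megabase was lowest on chromosome 13 (0.241) and highest on chromosome 11 (0.582), with 0.363 over all autosomes. As a share of the listed DMRs of the chromosome they were 5.01% on chromosome 13, 8.42% on chromosome 11 and highest, at 8.93%, on chromosome 17, against 6.96% overall. The share of them higher in MMS ran from 5.71% on chromosome 14 (2 of 35) to 26.9% on chromosome 16 (7 of 26). It was 13.9% over all 894, and these counts per chromosome are small. The distal 10% of the chromosomes held 166 of them (18.6%), against 14.5% of the other DMRs. Another listed DMR of any level lay within 10 kb of 155 of the 894 (17.3%), and for 88 of these at least one such neighbour had the opposite direction. Among the 894 themselves, 9 pairs of neighbours were under 10 kb apart. In 8 pairs both were higher in control, and 1 pair near Il21r, an interleukin receptor gene, was opposite, with means of 4.74 and 5.88 at chr7:125585786-125587392 and of 6.22 and 5.30 at chr7:125596666-125597788.

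Short sequence motifs were counted in the central base of each DMR and 150 bases to either side, on both strands. The cAMP response element TGACGTCA was present in 6 of the 894 DMRs (0.671%) and in 0.288% of all autosomal DMRs. All 6 were higher in control, as were 86.1% of the 894. The E-box CACGTG was present in 6.38% against 5.61%, the Sp1 motif GGGCGG in 6.71% against 5.47%, TGCGCA in 3.36% against 2.38%, the CCAAT box in 28.7% against 34% and a CA repeat of 8 units in 4.47% against 5.12%. Of these motifs, the first 4 each contain a CpG site, and the 894 DMRs had a median of 48.6% G or C against 47.3% in the others. The glucocorticoid response element, searched as exact AGAACA and TGTTCT separated by 3 bases, had 0 matches in this window in any autosomal DMR, which for a motif of this length says nothing about these regions.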

How the data were processed

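MeDIP libraries of 3 control and 3 MMS pools were made by the authors, who used Torrent Suite for alignment to mm10 and MACS2 2.1 for broad peaks over the inputs, with the genome size setting for human (-g hs). Groups were compared by the authors with DiffBind and DESeq2. HOMER 4.8 was used by the authors for annotation. The deposited log2 values are the authors' mean normalised reads over all libraries and per group. The methods state normalisation to each group's pooled input and subtraction of IgG, without saying how this enters the deposited means. The overall mean matched the mean of both groups within 0.01. The authors' fold, p-value and FDR columns hold their own comparison and were not used. Inputs and IgG were not analysed by themselves.

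Regions were taken by both group means. The regions and gene lists were chosen with earlier results of these data known. Total reads are stated in the methods as a range and not by library, and no test of single libraries was possible, so counts, shares and medians are given. Sequence came from the RefSeq GRCm38 genome and features from GENCODE M21: the promoter reached 1000 bp before and 100 bp past a start, the transcription end 100 bp before and 1000 bp past an end, then UTR, exon, intron. A region was counted for each protein-coding gene it touches. Genes were named as the 8 largest differences per direction, the 4 highest means and means per kilobase, up to 8 promoters and the 5 genes with most regions. Of these 5 genes, Abcc4 tied with others at 2 regions and was taken in order of name. Also named were the largest in each direction per list, those next to the limit, and opposite neighbours. Sequences were planned for the 3 largest differences per direction and for promoter regions, and those of promoter regions are not reported here. Alternatives were other limits, chromosomes, widths, differences, repeats and annotations, and 2 added after the data were seen, on copied sequence and assembly gaps. Scripts were tested on simulated data and used pandas 2.3.3, numpy 2.4.6 and matplotlib 3.10.9 under Python 3.11.15.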

Additional observations from a re-analysis of the deposited data

How the results depend on the processing

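The share of regions higher in MMS was 13.5% to 15.4% under the alternatives that change which regions are counted, against 13.9% as reported. These add or drop regions with the same deposited means, so the direction of a single region cannot change, and joining neighbours had no pair under 1 kb to join. With a limit of 4 on both means there were 1661 regions, a median difference of 1.21, a median width of 904 bp, 37.3% intergenic regions and 800 protein-coding genes. With a limit of 5 there were 369 regions, a median difference of 0.97, a width of 1281 bp, 1.65 CpG sites per 100 bp and 210 genes. A minimum difference of 1 gave medians of 1.14 and 970 bp, and a minimum width of 300 bp gave 1157 bp. A wider promoter, from 2000 bp upstream to 500 bp downstream, held 10.4% of the regions. With transcripts of protein-coding genes only, introns held 44.7%, intergenic DNA 42.6% and promoters 3.58%. Leaving out regions with copied sequence or within 50 kb of an assembly gap, both chosen after the data were seen, gave 851 and 881 regions, with 13.5% higher in MMS in each.

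No paired analysis was possible because the deposited table holds 1 mean per group and no value per library, so no fit without 1 of the libraries was run either. How far single pools set a mean was not tested. The table lists only selected regions, so regions of like level without a difference are not seen here, and the smallest difference listed depends on level.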
